A study of Homo sapiens with 18 samples.

Results

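Expression of 8 genes of cholesterol synthesis, SREBF2, INSIG1, HMGCS1, IDI1, FDFT1, SQLE, LSS and DHCR7, was compared between ZR751 cells with a knockdown of MLL3 and control cells, together with the chromatin peaks listed at their promoters. The genes were chosen as members of the SREBP2 pathway, by symbol. Each matched 1 row of the 23500 rows that name a transcript in the FPKM table, and all 8 were among the 11134 genes kept by the filter on low levels. Although the group had been drawn up as synthesis and uptake genes, none of the 8 encodes an uptake receptor, and uptake genes are described below from a list of their own. ZR751 is an established luminal, estrogen receptor positive breast cancer cell line. ZR751shMLL3 cells express a short hairpin RNA against MLL3 (gene symbol KMT2C), a methyltransferase that places a single methyl group on lysine 4 of histone H3 (H3K4me1), and ZR751shLucif cells express a hairpin against luciferase as the control. Both lines were made by stable lentiviral transduction of the same parental line, were sorted for the GFP of the vector and were used at early passage at steady state. They are sorted populations, and 1 hairpin was used against MLL3. RNA-seq had 2 libraries per cell line, and ChIP-seq of SP1, the estrogen receptor ERα and H3K4me1 had 2 libraries per cell line and antibody.

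Cells make cholesterol from acetyl-CoA through mevalonate, isoprenoid pyrophosphates, squalene and lanosterol. SREBP2, the product of SREBF2, is a transcription factor that is held in the endoplasmic reticulum while sterols are plentiful, and INSIG1 is one of the proteins that hold it there. When sterols fall, SREBP2 is cut in the Golgi, enters the nucleus and activates the genes of the pathway, INSIG1 and SREBF2 itself among them. The promoters it acts on are known for sterol response elements beside sites for the cofactors SP1, which binds GC boxes, and NF-Y, which binds the CCAAT sequence.

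Promoter sequences of 6 of the genes are shown because all 8 promoters held the motifs of both cofactors, and the SP1 peaks are read against them. In the 250 bases before the annotated start, on either strand, the GC box GGGCGG was present in 8 of 8 promoters and in 59.2% of the 19812 protein-coding promoters of the same length. CCAAT was present in 8 of 8 and in 34.3% of all. Among the promoters of genes tested in the RNA-seq, the shares were 74.8 and 35.2%. The sterol element TCACNCCAC, in which N is any base, was found in 1 of the 8, SREBF2, and in 0.969% of all promoters. Only this sequence was searched, so sterol elements that differ from it or lie outside the 250 bases were not counted. No match overlapped another in the 8 promoters, except that 2 GC boxes of INSIG1 shared a base. The sequences are from GRCh37, the build of the peak lists, and run 5′ to 3′ along each gene. Capitals mark matches to any of these 3 motifs on either strand. Only bases that lie in no annotated exon are shown. SREBF2 is the exception, since its whole window lies in annotated exons, and the 30 bases around its sterol element are given. Annotated exons cover 176 of the bases in FDFT1, 124 in DHCR7, 102 in INSIG1 and 100 in HMGCS1. They cover 50 in LSS, 8 in SQLE and 0 in IDI1. Several of the annotated genes, FDFT1 and DHCR7 among them, begin upstream of the start used.
SREBF2, chr22:42228966-42228995 (plus strand): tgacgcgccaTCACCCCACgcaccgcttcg
INSIG1, chr7:155089338-155089485 (plus strand): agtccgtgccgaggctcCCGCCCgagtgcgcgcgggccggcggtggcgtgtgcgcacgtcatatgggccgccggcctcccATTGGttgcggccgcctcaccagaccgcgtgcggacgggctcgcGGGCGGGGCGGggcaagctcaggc
HMGCS1, chr5:43313615-43313764 (minus strand): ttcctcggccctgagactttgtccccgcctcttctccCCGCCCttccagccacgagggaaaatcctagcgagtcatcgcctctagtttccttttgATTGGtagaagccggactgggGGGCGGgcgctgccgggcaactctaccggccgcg
IDI1, chr10:1095060-1095309 (minus strand): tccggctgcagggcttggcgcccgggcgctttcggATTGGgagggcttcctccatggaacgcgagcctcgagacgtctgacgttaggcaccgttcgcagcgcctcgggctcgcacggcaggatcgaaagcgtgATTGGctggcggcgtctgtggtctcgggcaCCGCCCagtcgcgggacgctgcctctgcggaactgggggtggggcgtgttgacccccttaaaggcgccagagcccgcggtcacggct
LSS, chr21:47648739-47648938 (minus strand): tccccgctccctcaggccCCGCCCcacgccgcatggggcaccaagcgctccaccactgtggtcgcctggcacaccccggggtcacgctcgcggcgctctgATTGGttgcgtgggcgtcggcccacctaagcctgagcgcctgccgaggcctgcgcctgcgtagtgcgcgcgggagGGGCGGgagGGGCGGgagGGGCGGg
DHCR7, chr11:71159482-71159607 (minus strand): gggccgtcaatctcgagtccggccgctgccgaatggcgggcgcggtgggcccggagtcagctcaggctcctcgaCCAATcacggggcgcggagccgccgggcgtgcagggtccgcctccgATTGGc
LSS held the most GC boxes of the 8 promoters, 6, of which 4 are in the stretch shown, whereas the GC boxes of DHCR7 lie outside its stretch. INSIG1 held 5, SQLE and DHCR7 4 each, SREBF2, HMGCS1 and FDFT1 2 each, and IDI1 1. FDFT1 held 4 CCAAT matches and the other genes 1 or 2. The GC content of the 8 windows ran from 66.0% in HMGCS1 to 78.4% in INSIG1, with a median of 72.4%, against a median of 63.2% over all promoters and 66.8% over those of the genes tested. A match is a description of the sequence and does not show that a factor was bound.

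The targeted gene was not cleanly separated by label. KMT2C was at 2.34 and 6.77 FPKM (fragments scaled by transcript length and by library size, a level per length) in the libraries labelled ZR751shLucif replicates 1 and 2, and at 1.07 and 2.69 FPKM in those labelled ZR751shMLL3. Columns were assigned to libraries by the library number, which is unique in the series, since the rest of the column name differs by a letter from the sample descriptions. The log2 fold change was -1.02 ± 0.54 (SE), with an adjusted p of 0.629 in limma, and ZR751shLucif replicate 1 lay below ZR751shMLL3 replicate 2. Leaving out single libraries gave log2 fold changes of KMT2C from -1.70 to -0.35. ZR751shLucif replicate 1 also stood apart over all genes, with correlations of 0.900 to 0.907 to the other libraries, against 0.947 to 0.969 among the other 3. The luminal markers ESR1, GATA3, FOXA1, KRT8 and KRT18 were expressed at 10.8 FPKM or more in every library, FOXA1 lower without overlap in ZR751shMLL3, and KRT5, KRT14, VIM and PTPRC were at 0.372 FPKM or less. COL1A1, a fibroblast collagen, was at 13.1 to 17.8 FPKM in all 4 libraries. The depth behind single genes is unknown, because the table holds FPKM and no counts. In such bulk samples, fewer cells that express a gene and less RNA per cell cannot be told apart.

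No member passed the test, and the differences of the 8 genes lay on both sides of 0. By level, 3 genes were higher in both ZR751shMLL3 libraries than in both controls: LSS 2.26-fold, DHCR7 1.72-fold and SREBF2 1.40-fold, as ratios of mean FPKM. The means of LSS were 18.01 ± 1.14 and 40.6 ± 11.6 FPKM in ZR751shLucif and ZR751shMLL3, those of DHCR7 63.5 ± 15.1 and 109.1 ± 36.1, and those of SREBF2 38.05 ± 10.2 and 53.4 ± 6.94 (SD, n = 2). The other 5 overlapped between the cell lines. The enzymes up to squalene were at nearly equal mean levels, and INSIG1 was high in 1 ZR751shMLL3 library only. limma called 0 of the 8 genes at an adjusted p of 0.05 in either direction, against 0% of all genes called higher and 0.00898%, a single gene, called lower. With no call across the transcriptome in the higher direction, the absence of a call in the 8 genes is not particular to them.

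**Figure D1:**
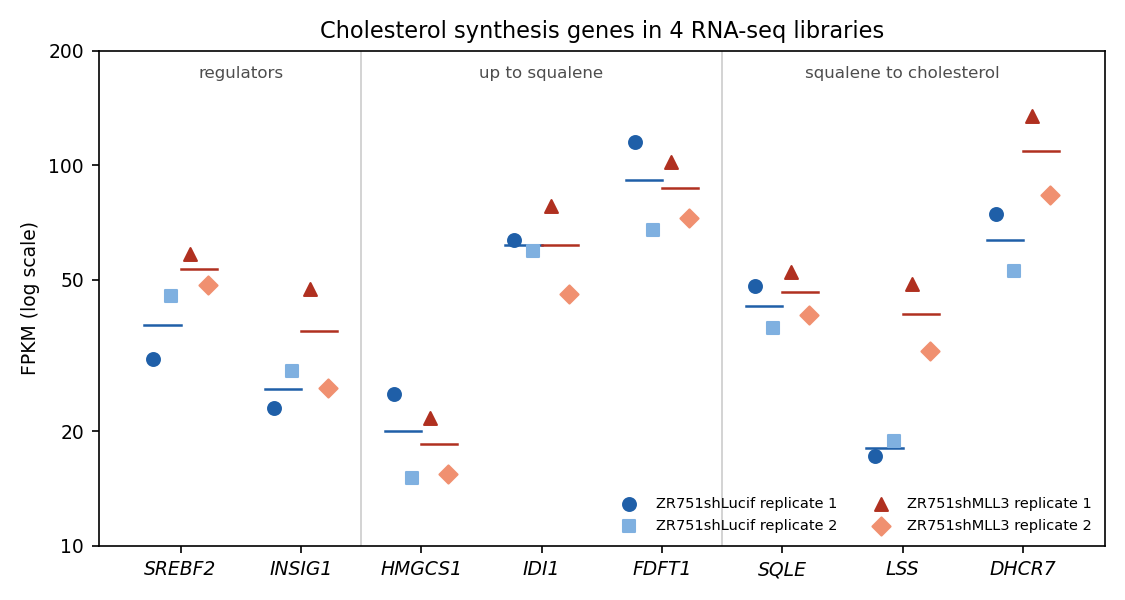
FPKM of the 8 genes (log axis) in each of the 4 RNA-seq libraries, with short lines at the mean of each cell line, grouped by role. LSS, DHCR7 and SREBF2 lie higher in both ZR751shMLL3 libraries than in both controls, and the points of the other 5 genes overlap.

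Among the regulators, SREBF2 (chr22:42229109-42303310), which encodes the transcription factor of the pathway, was at 30.9 and 45.2 FPKM in ZR751shLucif replicates 1 and 2 and at 58.3 and 48.5 FPKM in ZR751shMLL3 replicates 1 and 2. The groups did not overlap, but ZR751shLucif replicate 2 and ZR751shMLL3 replicate 2 were close. The log2 fold change, computed on log2(FPKM + 0.5) and given as ZR751shMLL3 minus ZR751shLucif throughout, was 0.50 ± 0.31 (SE), with a 95% interval of -0.25 to 1.25 and an adjusted p of 0.649, which ran from 0.0859 to 1 over 13 alternative analyses. Without ZR751shLucif replicate 1 it was 0.23, and without ZR751shLucif replicate 2 it was 0.78. INSIG1 (chr7:155089486-155101945), which retains the SREBP complex in the endoplasmic reticulum and is itself a classical sterol-regulated gene, was at 22.98 and 28.8 FPKM in the control libraries and at 47.3 and 25.96 FPKM in the knockdown libraries. Its higher mean rested on ZR751shMLL3 replicate 1, since ZR751shMLL3 replicate 2 lay between the controls. The log2 fold change of INSIG1 was 0.44 ± 0.36 (SE, adjusted p = 0.704), and 0.01 without ZR751shMLL3 replicate 1.

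The enzymes up to squalene showed no separation. HMGCS1 (chr5:43287572-43313614), the cytosolic HMG-CoA synthase, was at 25.02 and 15.04 FPKM in the control libraries and at 21.6 and 15.4 FPKM in the knockdown libraries. The replicates of each line differed more than the lines did, and both second replicates were low. Its log2 fold change was -0.09 ± 0.35 (SE), with a 95% interval of -0.94 to 0.77. IDI1 (chr10:1085092-1095059), which isomerizes isopentenyl pyrophosphate, was at 63.8 and 59.5 FPKM in ZR751shLucif. In ZR751shMLL3 it was at 77.9 and 45.7 FPKM, the highest and the lowest of the 4 values, and its log2 fold change was -0.04 ± 0.34 (SE). FDFT1 (chromosome 8), the squalene synthase and the first enzyme committed to sterols, was at 115 and 67.7 FPKM in the control libraries and at 102 and 72.6 FPKM in the knockdown libraries. Its log2 fold change was -0.04 ± 0.36 (SE). The adjusted p of these 3 genes ran from 0.944 to 0.980. Their 95% intervals reached from -0.94 at the lowest to 0.84 at the highest, so differences of that size in either direction were not excluded at this number of libraries.

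The enzymes after squalene were less uniform. SQLE (chromosome 8), the squalene epoxidase and a rate-limiting step, was at 48.2 and 37.3 FPKM in the control libraries and at 52.3 and 40.4 FPKM in the knockdown libraries. The groups overlapped and the log2 fold change was 0.12 ± 0.30 (SE, adjusted p = 0.902). LSS (chr21:47608055-47648738), which cyclizes the epoxide to lanosterol, was at 17.2 and 18.8 FPKM in the control libraries and at 48.8 and 32.4 FPKM in the knockdown libraries. The lowest ZR751shMLL3 value was well above both controls, which lay close together. LSS had the largest difference of the 8, with a log2 fold change of 1.12 ± 0.31 (SE), a 95% interval of 0.38 to 1.87 and an unadjusted p of 0.0099. It was the only member with an unadjusted p under 0.05, a rate that 3.67% of all genes reached in the higher direction. After Benjamini-Hochberg adjustment over all genes in limma, its p was 0.495, and over the same 13 alternatives it ran from 0.0536 to 1. DHCR7 (chr11:71139239-71163914), the reductase of the last step of the Kandutsch-Russell branch, was at 74.2 and 52.8 FPKM in the control libraries and at 134.6 and 83.5 FPKM in the knockdown libraries. The groups did not overlap, with ZR751shLucif replicate 1 nearest to ZR751shMLL3 replicate 2. Its log2 fold change was 0.76 ± 0.35 (SE), with a 95% interval of -0.09 to 1.60 and an adjusted p of 0.629. LSS and DHCR7 were higher in ZR751shMLL3 when any 1 library was left out, with log2 fold changes of 0.83 to 1.42 for LSS and 0.41 to 1.10 for DHCR7.

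Over the 8 genes, 5 had a log2 fold change above 0 and 3 below, where 40.9% of all genes tested were above 0. The median was 0.28, beside a median of -0.10 over all genes tested. Higher levels without overlap were found in 3 of 8 and lower levels without overlap in 0 of 8, where 17.6 and 25.3% of all genes had them. The median depended on 1 library, since it was -0.03 without ZR751shMLL3 replicate 1 and 0.49 without ZR751shMLL3 replicate 2. The 3 genes whose groups were apart shared a transcript GC content of 58.0 to 58.1%, and the other 5 had 37.9 to 46.5%. Over all genes tested, the log2 fold change was greater at higher transcript GC content, with Spearman's rho of 0.537 across genes, which are not independent replicates. In the bin of 55 to 60% GC the median log2 fold change was 0.14 and 29.4% of genes were higher without overlap. In the bin of 35 to 40%, which holds IDI1 and HMGCS1, the median was -0.38 and 2.48% were. After the GC trend had been removed from each library, all 8 genes had log2 fold changes above 0. They ran from 0.16 in FDFT1 to 0.94 in LSS, with a median of 0.32. Of all 10536 genes with a GC value, 5209 were then above 0. Higher levels without overlap were found in 3 of the 8 and in 1926 of the 10536. DHCR7 was then at 0.58, SREBF2 at 0.32, and SREBF2 overlapped between the groups while SQLE did not. The number of genes called was 0 of 8 here too, and whether GC content had a part in the differences was not tested.

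**Figure D2:**
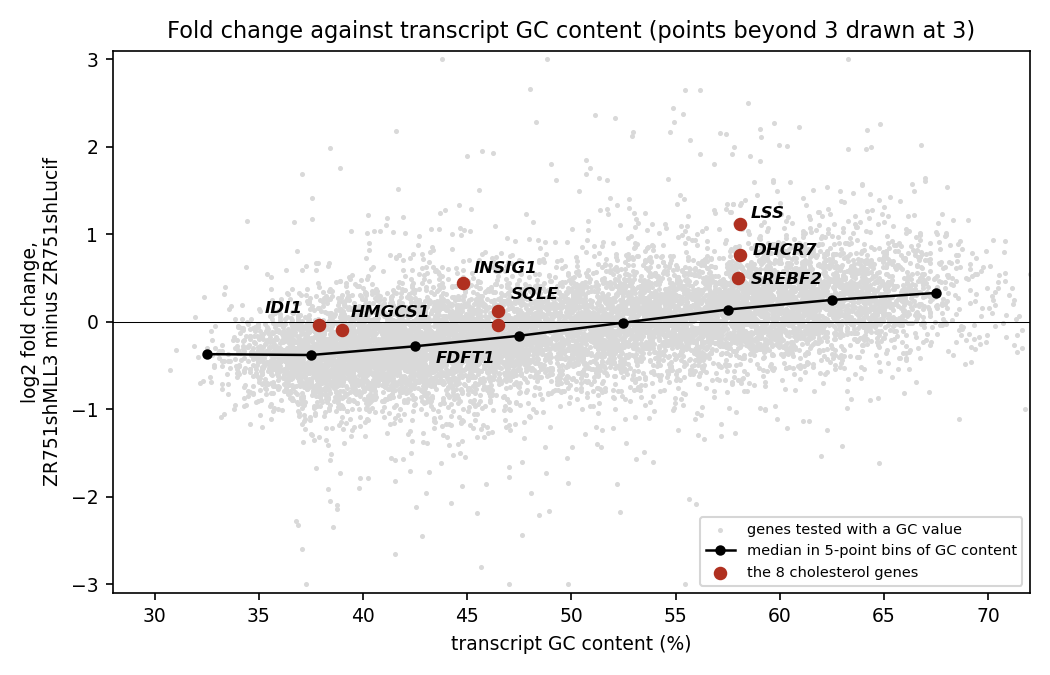
Log2 fold change (ZR751shMLL3 minus ZR751shLucif) against transcript GC content for the genes tested (grey), the median in bins of 5 percentage points (black) and the 8 cholesterol genes (red). The black line goes from -0.37 in the bin of 30 to 35% to 0.33 in the bin of 65 to 70%, and each of the 8 genes lies above it.

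The rest of the pathway was described from lists of 44 further genes, of which 40 were tested. TM7SF2 and NPC2 had no row that matched them alone and so no value of their own, and 2 genes, ABCA1 among them, were below the filter. In limma 0 of the 40 were called in either direction, and 3 higher and 1 lower had an unadjusted p under 0.05, as did 409 and 480 of the 11134 genes tested. By level, 12 were higher and 5 lower without overlap, where 17.6 and 25.3% of all genes were, and the median log2 fold change was 0.17, beside -0.10 over all genes. The counts in the single lists below, of 4 to 14 genes each, are descriptions to be read against the same shares. The single genes with non-overlapping levels that are named here were chosen after their values were seen, beside the largest and smallest difference in each list.

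Of 14 other synthesis enzymes, 5 were higher without overlap and 0 lower (17.6 and 25.3% of all genes), and the median log2 fold change was 0.17. Among them were MVK and MVD, which phosphorylate mevalonate and decarboxylate its diphosphate, and HSD17B7 and NSDHL, which act between lanosterol and cholesterol. MVD had the largest difference of this list. It was at 43.9 and 44.1 FPKM in the control libraries and at 102.9 and 58.7 FPKM in the knockdown libraries, with a log2 fold change of 0.81 ± 0.34 (SE, adjusted p = 0.615). MVK was at 14.1 and 14.0 FPKM in ZR751shLucif against 25.5 and 22.6 FPKM, a log2 fold change of 0.75 ± 0.26 (SE). HSD17B7 has pseudogene copies with which it may share reads, so its level is uncertain. LBR, a nuclear envelope protein with sterol reductase activity, had the lowest log2 fold change, -0.69 ± 0.40 (SE), from 25.8 and 51.1 FPKM in ZR751shLucif and 26.6 and 18.6 FPKM in ZR751shMLL3.

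Of 5 genes for SREBP processing, SREBF1, which encodes SREBP1, was higher without overlap (60.6 and 64.1 against 84.4 and 72.4 FPKM, log2 fold change 0.32 ± 0.27 (SE)). MBTPS2, the site-2 protease, was lower without overlap (14.4 and 15.8 against 9.21 and 11.4 FPKM, log2 fold change -0.53 ± 0.27 (SE)). The list's median log2 fold change was 0.03. Among 8 tested uptake and transport genes, 2 were higher and 1 lower without overlap, with a median of 0.29. SCARB1, the HDL receptor, was at 60.1 and 39.7 FPKM in the control libraries and at 97.8 and 83.0 FPKM in the knockdown libraries, with a log2 fold change of 0.88 ± 0.31 (SE, adjusted p = 0.604). MYLIP, a ubiquitin ligase that limits sterol uptake, was lowest at -0.58 ± 0.36 (SE). Of 4 storage and efflux genes tested, 1 was higher and 2 lower without overlap, and the median log2 fold change was -0.55. ABCG1, a sterol exporter and target of liver X receptors, was at 22.1 and 21.4 FPKM in the control libraries and at 8.68 and 13.2 FPKM in the knockdown libraries, a log2 fold change of -0.99 ± 0.31 (SE, adjusted p = 0.557). NR1H2, which encodes a liver X receptor, was at 0.57 ± 0.29 (SE). Of 9 fatty acid synthesis genes, 3 were higher and 1 lower without overlap. ACSS2 had the largest log2 fold change, 0.75 ± 0.32 (SE), ME1 the smallest, -0.39 ± 0.28 (SE), and the median was 0.41.

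**Figure D3:**
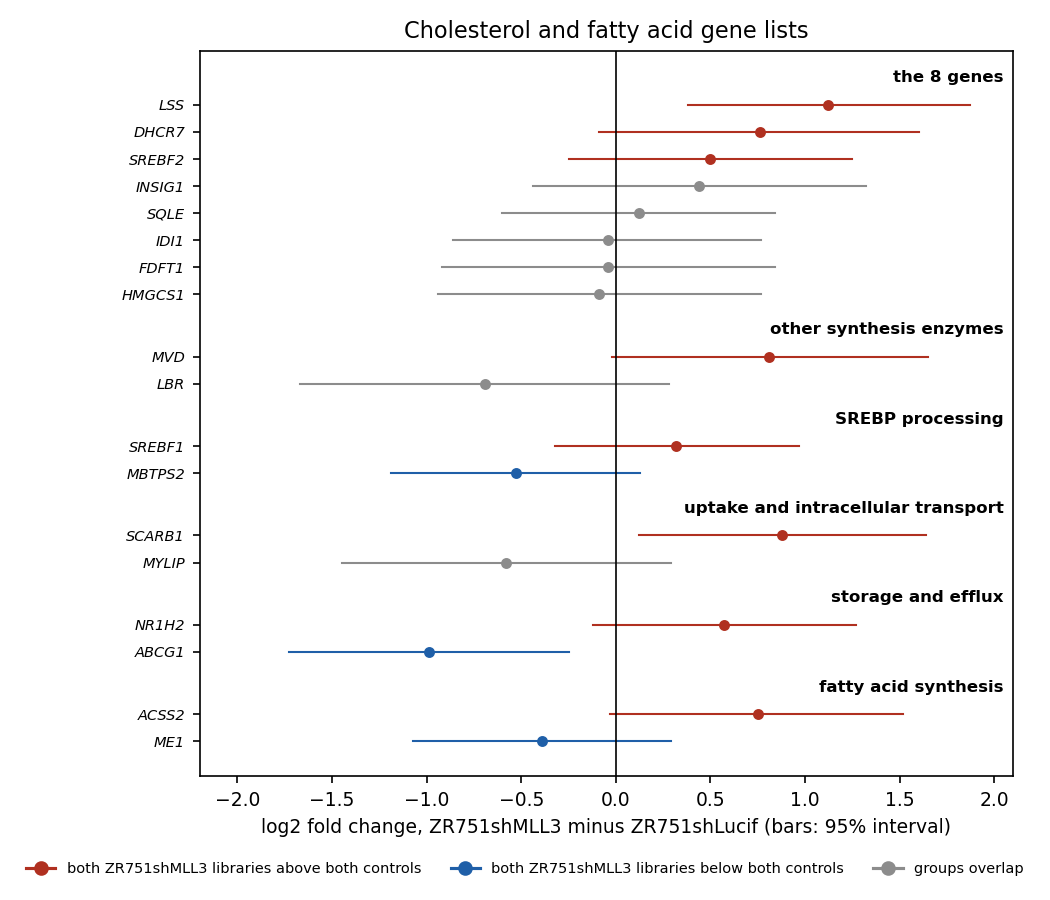
Log2 fold change with its 95% interval from limma for the 8 genes and for the genes with the largest and smallest difference in each further list, red where both ZR751shMLL3 libraries were above both controls and blue where both were below. Most intervals include 0, and of the 10 other genes drawn 5 are red and 3 are blue.

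By level, which FPKM allows to be compared between genes, the 8 genes ran from a mean over 4 libraries of 89.4 FPKM in FDFT1 and 86.3 in DHCR7 through IDI1 at 61.7, SREBF2 at 45.7, SQLE at 44.6, INSIG1 at 31.3 and LSS at 29.3 to HMGCS1 at 19.3. Every pair of neighbours in this order overlapped in the range of their 4 values. LSS varied most between libraries, with its highest value 2.84 times its lowest, and SQLE least, at 1.40 times. Centred on each gene's mean on the log2 scale, the median of the 8 genes was -0.03 in ZR751shLucif replicate 1, -0.28 in ZR751shLucif replicate 2, 0.37 in ZR751shMLL3 replicate 1 and -0.17 in ZR751shMLL3 replicate 2. ZR751shMLL3 replicate 1 was thus the only library with a positive median. The 5 tested genes closest to this median profile over the 4 libraries, by Euclidean distance, were SYCE3 (0.055), PPP1R15A (0.073), JUNB (0.082), CAMKK1 (0.088) and IER3 (0.092).

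SP1 peaks within 1 kb of these starts came mostly from 1 library. The lists were made by the peak caller for each library separately, and their signal values have a scale of their own, so peaks were compared by false discovery rate (FDR) and by rank. Within 1 kb of the annotated start, at an FDR of 0.01 or less, a peak was listed for 5 of 8 genes in ZR751shMLL3 replicate 2 (SREBF2, HMGCS1, IDI1, FDFT1 and DHCR7) and for 1 of 8, HMGCS1, in ZR751shMLL3 replicate 1. All promoters had such a peak at 28.9 and 19.0%, and promoters of the genes tested in the RNA-seq at 47.3 and 25.3%. In both ZR751shLucif libraries the count was 0 of 8, and 0% of all promoters, because no peak of these lists could pass. The largest -log10 FDR there was 1.54 and 1.21, below the 2 that an FDR of 0.01 requires. The difference, 3 genes per library, gave p = 0.333 (exact permutation, two-sided), which is the lowest p this design can reach. Within 5 kb the counts were 0 and 0 of 8 in ZR751shLucif and 5 and 5 of 8 in ZR751shMLL3 replicates 1 and 2. In ZR751shMLL3, 48.7 and 32.1% of all genes and 54.1 and 50.7% of the genes tested had such a peak. HMGCS1, IDI1 and FDFT1 were in both counts, INSIG1 and SQLE in replicate 1 only, and SREBF2 and DHCR7 in replicate 2 only. At this FDR, 204178 of 209985 listed peaks passed in replicate 1 and 12065 of 300000 in replicate 2.

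Ranks remove that limit. Among the 20000 peaks of highest signal in each library, a peak lay at 0 of 8 promoters in ZR751shLucif replicate 1, 0 in ZR751shLucif replicate 2, 0 in ZR751shMLL3 replicate 1 and 6 in ZR751shMLL3 replicate 2. The shares of all promoters were 3.56, 4.09, 4.45 and 32.9% in the same order. The second ZR751shMLL3 library thus stood apart from its replicate over the whole genome, and 53.5% of the promoters of genes tested had a peak there. The permutation p was 1 at this threshold, and without ZR751shMLL3 replicate 2 no member had a top-ranked peak in any library. In ZR751shMLL3 replicate 2, the peak at IDI1 (chr10:1094707-1095206) ranked 103 of 300000, that at DHCR7 (chr11:71159377-71159876) ranked 1047, and those at FDFT1, SREBF2, HMGCS1 and SQLE ranked 4125, 6606, 8401 and 12751. INSIG1 had only a low-ranked peak 676 to 1175 bp after its start. LSS, with the most GC boxes and the largest difference in RNA, had no listed SP1 peak within 1 kb in any library. In ZR751shLucif, the only listed peak at the 8 genes was 1 at IDI1 in replicate 1, at rank 83579. The 2 peaks at HMGCS1 in ZR751shMLL3 replicate 1 ranked 125552 and 147921 of 209985 and covered none of its motif matches.

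**Figure D4:**
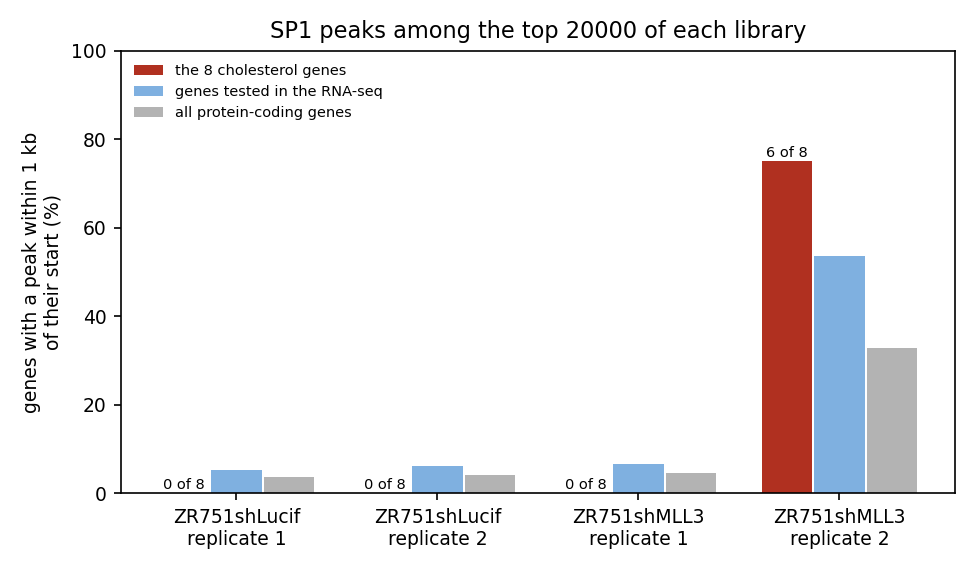
Percentage of genes with a peak within 1 kb of their start among the 20000 top-ranked SP1 peaks of each library, for the 8 cholesterol genes (red, with counts), the genes tested in the RNA-seq (blue) and all protein-coding genes (grey). The members and the whole genome stand high in ZR751shMLL3 replicate 2 only, and 0 of 8 members have a peak in the other 3 libraries.

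**Figure D5:**
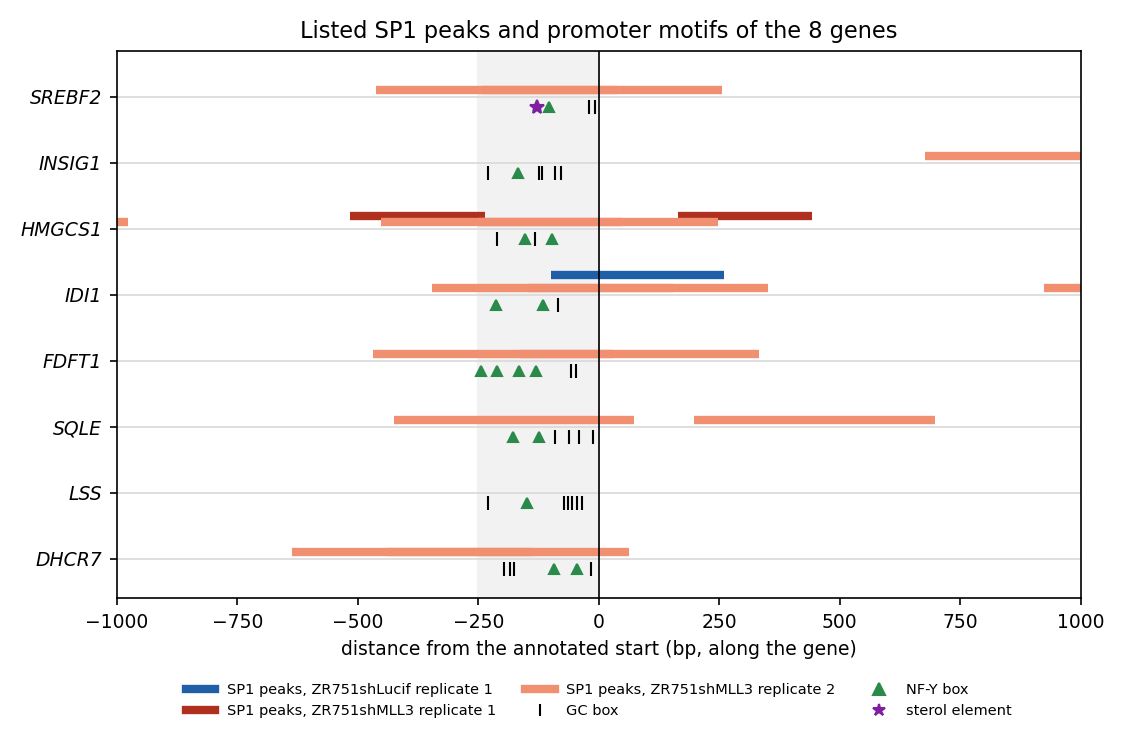
Listed SP1 peaks (bars) and matches to the GC box, NF-Y box and sterol element (symbols) at the 8 genes, by distance from the annotated start in bp along the gene. The shaded 250 bp were searched for motifs, bars are cut at 1000 bp, and ZR751shLucif replicate 2 has no bar because it listed no peak in these windows.

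At an FDR of 0.01 and within 1 kb, H3K4me1 peaks were listed at 0 to 2 of the 8 starts per library and ERα peaks at 0 to 1. H3K4me1 is a mark of enhancers and of the flanks of active promoters. It was listed at HMGCS1 and SQLE in ZR751shLucif replicate 1, at none of the 8 in ZR751shLucif replicate 2, at none in ZR751shMLL3 replicate 1 and at HMGCS1 in ZR751shMLL3 replicate 2. The shares of all promoters were 22.2, 26.5, 2.88 and 12.5%, and those of the genes tested in the RNA-seq 32.6, 38.4, 4.02 and 17.4%. The passing peaks at HMGCS1 reached the window only with their edges. With the summit required within 1 kb, SQLE in ZR751shLucif replicate 1 was the only member listed, against 11.6, 15.2, 1.66 and 5.96% of all promoters. With every listed peak, an alternative also chosen after seeing the data, the counts were 4 and 3 of 8 in ZR751shLucif and 3 and 1 of 8 in ZR751shMLL3. All promoters had such a peak at 39.8, 36.2, 24.2 and 28.3%, and those of the genes tested at 56.4, 50.8, 28.9 and 37.4%. Within 5 kb at an FDR of 0.01, a window chosen after seeing the data, the counts were 3 and 7 of 8 in ZR751shLucif and 1 and 7 of 8 in ZR751shMLL3. All genes had such a peak at 42.1, 49.9, 12.1 and 33.2%, and the genes tested at 59.4, 68.9, 17.6 and 46%. The difference in mean count, -1 gene, was smaller than that between replicates, and the exact permutation p was 1. LSS had no H3K4me1 peak at an FDR of 0.01 even within 5 kb in any of the 4 libraries. Peaks that did not pass this FDR were listed within 1 kb of LSS in ZR751shLucif replicate 2 and ZR751shMLL3 replicate 1. For ERα, HMGCS1 had a peak within 1 kb at an FDR of 0.01 in ZR751shLucif replicate 1, and none of the 8 had one in the other 3 libraries, against 7.3, 0.737, 0.121 and 1.5% of all promoters. Within 5 kb, SREBF2 was added in ZR751shLucif replicate 1 and the other 3 libraries stayed at 0 of 8. All genes had such a peak at 27.9, 1.59, 0.262 and 8.07%, and the genes tested at 29.9, 2.27, 0.352 and 7.51%. The count of 2 of 8 was thus near the share of all genes in that library.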

How the data were processed

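RNA-seq (stranded total RNA, 2 libraries per cell line) and ChIP-seq peak lists (2 per cell line and antibody) were used. The authors deposited FPKM per RefSeq entry, from TopHat2 2.0.13, Cufflinks 2.2.1 and Cuffnorm 2.2.1 on hg19. The authors deposited, per library, SPP peaks with a signal value and the −log10 of an FDR (a q-value), called against the input of the cell line after alignment with BWA 0.7.5a-r405. Columns of the FPKM table were matched to the samples by library number alone, because their prefix differs by a letter from that in the sample descriptions. Of the rows, 95.5% matched 1 symbol through RefSeq accessions. log2(FPKM + 0.5) was tested with limma 3.58.1 in R 4.3.3, for genes with a mean log2 level over 1, and p-values were adjusted by Benjamini-Hochberg (threshold 0.05). The study's surrogate variable step was an alternative. Deviations of same-numbered RNA libraries correlated at 0.0374 across genes. That value cannot settle whether replicate numbers pair them, and the main fit held no replicate block. The study calls the replicates biological. Promoters were the start of the canonical GENCODE transcript on GRCh37 with 1 kb on either side, and any overlap with a peak counted. The genes, lists and tests were chosen with earlier results of these data known. Named were the 8 genes, KMT2C, the largest and smallest difference in each list, and the 5 nearest profiles. MVK, HSD17B7, NSDHL and STARD4 fall outside this rule and were chosen after their values were seen. The steps were tested on simulated data. Input libraries and read counts were not used here. Some genes of the further lists were counted but are not reported here by name.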

Additional observations from a re-analysis of the deposited data

How the results depend on the processing

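Over 13 alternative analyses of the RNA (other pseudocounts, filters and scalings, a replicate block, a surrogate variable, a GC correction and each library left out), the number of the 8 genes called stayed at 0, and LSS, DHCR7, SREBF2 and INSIG1 stayed above 0. The number called over all genes was 1, and became 0 without the filter, 0 with the GC trend removed (also 0 without that correction on the same 10536 genes with a GC value), 33 with the replicate block, 473 with 1 surrogate variable estimated from the residuals of the same fit, and 2 to 1269 with a library left out, the highest without ZR751shLucif replicate 2. Whether same-numbered libraries were paired is unknown, and the block changed no call among the 8 genes. Replicate 1 lay above replicate 2 in both lines for HMGCS1, IDI1, FDFT1, SQLE and DHCR7. For SREBF2, INSIG1 and LSS it did so in ZR751shMLL3 only. Leaving out 1 library gave medians of -0.03 to 0.49, 3 to 6 genes higher without overlap, and 0 to 1 of the other pathway genes called (STARD4, a sterol carrier, without ZR751shLucif replicate 2), where the alternatives for these lists were chosen after seeing the data. Without ZR751shLucif replicates 1 and 2, 6 and 4 of the 8 were higher without overlap, as were 4603 and 3273 of all 11134 genes. Without ZR751shMLL3 replicates 1 and 2, 3 and 6 were, as were 2941 and 2730 of all genes. With every library kept, 1959 of all genes were, since a line with 1 library left separates more easily. The near-zero differences changed sign. HMGCS1 was at 0.00 with quantile normalization and 0.26 with the GC trend removed, IDI1 at 0.04 with median centring, 0.07 and 0.32, and FDFT1 at 0.04, 0.08 and 0.16. With a library left out, HMGCS1 ran from -0.44 to 0.27, IDI1 from -0.43 to 0.34, FDFT1 from -0.42 to 0.34 and SQLE from -0.07 to 0.30. The cause was not tested. The SP1 difference was 1 to 5 genes over the thresholds and windows run, but its direction says nothing of stability, since no ZR751shLucif peak could pass the FDR thresholds and by rank the genes had peaks in ZR751shMLL3 replicate 2 alone. It was 1 without ZR751shMLL3 replicate 2 and 5 without ZR751shMLL3 replicate 1. With 2 libraries per line, a wide range of differences could not be told from 0.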
